A study of Mus musculus with 8 samples.

Results

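The growth arrest specific (Gas) genes and Axl, the receptor of the Gas6 protein, were followed in cells labelled as mouse aortic endothelial, at low and high density. Members were the probe sets that the array's annotation assigns to the single symbol Gas1, Gas2, Gas5, Gas6, Gas7 or Axl, which gave 10 of 12422 probe sets that are not controls, or 6 of 8251 genes. They were chosen by name. RNA was measured on 8 single-colour Affymetrix mouse arrays, 1 sample each. On 4 arrays it came from subconfluent cultures (under 50% confluency), and on the other 4 from a mature confluent monolayer, and both groups were extracted from equal cell numbers. No strain, genotype, age, treatment or passage was stated for either group, and the labels do not say whether the cultures came from separate animals, so the p-values measure the spread between these samples. The comparison asks how transcript levels differ between sparse cells and cells that have filled the dish.

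The Gas genes were first cloned as transcripts that accumulate in serum-starved, growth-arrested mouse NIH 3T3 fibroblasts, and they share that origin rather than a sequence. Gas6 encodes a secreted vitamin K-dependent protein that binds the receptor tyrosine kinases Tyro3, Axl and Mertk, and Gas1 a membrane-anchored protein that can block entry into S phase and acts as a Hedgehog co-receptor. Gas5 is a noncoding host transcript whose introns carry small nucleolar RNAs, Gas2 an actin-associated protein cut by caspases, and Gas7 a membrane-bending F-BAR protein best known in neurons. In vessels, Gas6 and Axl are known for survival signalling in endothelial and smooth muscle cells.

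Promoter windows of the 3 genes bright enough to be tested are shown first, from RefSeq on build GRCm38.p6, each running from 250 bases before the annotated start to 50 after it, so that the start is base 251. Gas1 and Gas6 are shown because both fell, and capitals mark each copy of GGGCGG or its reverse complement CCGCCC, the GC box. Gas5 is shown, at the second of its 2 annotated starts, because its transcript is of the type that opens with a run of pyrimidines, and there the capitals mark the pyrimidines that begin at the start.
Gas1: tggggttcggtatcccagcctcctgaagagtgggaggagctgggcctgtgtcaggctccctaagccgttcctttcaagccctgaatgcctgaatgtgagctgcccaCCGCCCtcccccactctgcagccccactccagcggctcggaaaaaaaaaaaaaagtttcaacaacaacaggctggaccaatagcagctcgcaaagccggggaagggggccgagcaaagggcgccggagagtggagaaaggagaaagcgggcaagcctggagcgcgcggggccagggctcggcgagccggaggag
Gas6: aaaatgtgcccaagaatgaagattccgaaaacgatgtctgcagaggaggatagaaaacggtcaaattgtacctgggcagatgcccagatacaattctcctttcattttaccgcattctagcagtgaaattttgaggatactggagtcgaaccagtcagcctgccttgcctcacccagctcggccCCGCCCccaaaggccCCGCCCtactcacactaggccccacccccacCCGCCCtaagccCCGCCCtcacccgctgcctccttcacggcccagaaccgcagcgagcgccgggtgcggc
Gas5: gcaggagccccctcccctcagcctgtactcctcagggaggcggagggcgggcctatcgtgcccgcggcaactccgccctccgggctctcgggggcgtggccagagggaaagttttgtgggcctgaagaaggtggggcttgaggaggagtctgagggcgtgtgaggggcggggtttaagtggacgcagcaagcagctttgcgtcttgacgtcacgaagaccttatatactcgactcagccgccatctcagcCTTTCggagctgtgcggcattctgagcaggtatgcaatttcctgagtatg
The Gas1 window is chr13:60177486-60177785 on the minus strand, that of Gas6 chr8:13494486-13494785 on the minus strand, and that of Gas5 chr1:161034916-161035215 on the plus strand. The Gas1 window held 1 GC box and the Gas6 window 4, and 35.7% of the 32851 promoter windows in the table held at least 1. GC boxes also stood in the shown Gas5 window, where they are not marked, and at its other start. The Axl window and a Gas2 window held them too, so they are not particular to the genes that fell. Of the other motifs searched on both strands, the Gas1 and Gas6 windows held 0. These were GGAATG, bound by TEAD factors and held by 14.7% of all windows, and GTAAACA, bound by FOXO factors and held by 3.65%. AP-1 binds TGANTCA, which 7.81% of windows held, the E-box is CACGTG, which 7.15% held, and the TATA box is TATAAA, which 13.6% held. The Axl window held 1 GGAATG and 1 TGTTTAC (the reverse complement of GTAAACA), which overlap each other. The shown Gas5 start opens with 5 pyrimidines, a C first, while the other annotated start opens with 0. The start shown is thus the one of the 2 that has such a run. A C followed by 4 or more pyrimidines stood at the start of 2.51% of all windows.

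Signal is a linear brightness per probe set, brought by the authors to a common target of 500 per array. Marker genes were read first, because the cells are known only by their label. Fibroblast and pericyte markers summed over 21 genes gave 55395 to 75866 on the subconfluent and 87727 to 120967 on the confluent arrays, without overlap. By limma's test 5 of 16 tested markers fell (Dcn, Lum, Col1a2, Col3a1 and Col6a1), against 4.06% of all tested probe sets. Lum, with means of 153 in subconfluent and 2061 in confluent cells, reached the 200 needed for testing only through the confluent arrays. Its place in that count is thus no support for the list. With the replicate numbers as a block 9 of the 16 fell and 1, Twist2, rose, against 11.3% and 9.94% of all tested probe sets. The macrophage list, 15 genes, summed to 2251 to 2863 on subconfluent and 2938 to 4270 on confluent arrays, and most of that gap was Cd14, at 1292 to 1863.7 on subconfluent and 1886.7 to 3275.9 on confluent arrays. Without Cd14 the sums overlapped, at 900.5 to 1021 on subconfluent and 994.4 to 1066 on confluent arrays, with 9 of the list's genes at mean signals under 50, among them Adgre1, Itgam and Ptprc. Endothelial markers summed to 3448 to 4514 on subconfluent and 2946 to 4650 on confluent arrays. A mean of 200 was reached by 4 of the 19 endothelial genes (Flt4, Eng, Cd34 and Procr), against 56.6% of all genes. Cdh5, the junction protein that defines endothelium, read at most 29.5 on any array, Vwf at most 30.9 and Tek at most 21.3. The labelled cell type was thus not borne out by these defining markers. Smooth muscle sums ran from 2438 to 9945 on subconfluent and 2047 to 4068 on confluent arrays. They were higher in subconfluent cells in 4 of 4 same-numbered pairs. Acta2 and Tagln rose under the block (limma adjusted p = 0.0172 and 0.0102) but not without it (0.228 and 0.108). Without the block 0 of the 4 tested smooth muscle genes rose. Means of Cnn1 and Tpm2 were also higher in subconfluent cells, while those of Myl9, Smtn, Myh11 and Des were lower. Lymphocyte sums ran from 461 to 811 on subconfluent and 553 to 804 on confluent arrays. Epithelial and mesothelial sums ran from 1745 to 2479 on subconfluent and 2057 to 5838 on confluent arrays, lower in subconfluent cells in 4 of 4 pairs. The brightest gene of that list was Upk3b, with means of 1021 in subconfluent and 2115 in confluent cells. Means of Cdh1 (490 and 386), Msln and Krt19 were higher in subconfluent cells.

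**Figure D1:**
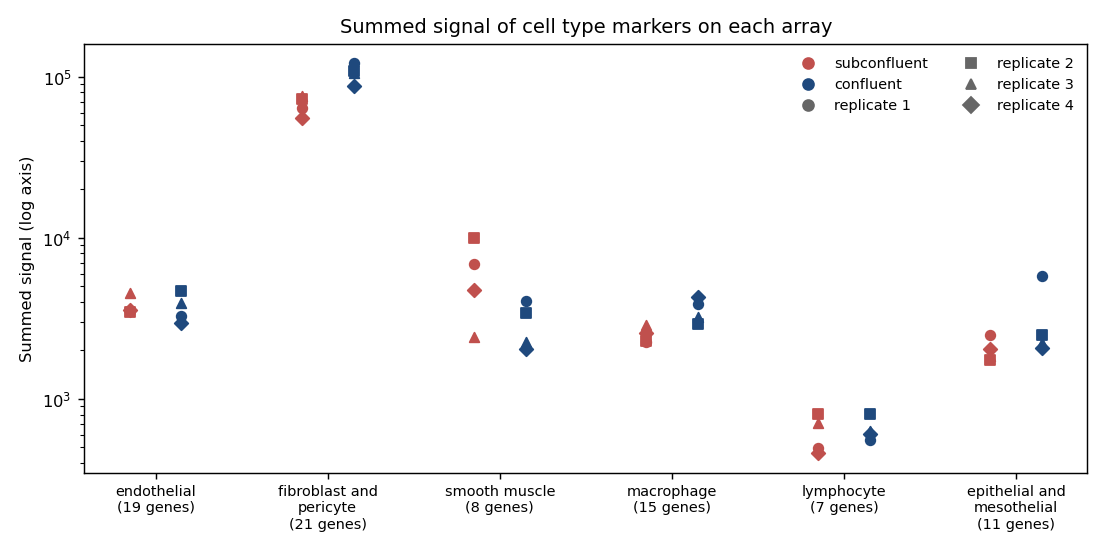
Summed signal (log axis) of each list of cell type markers on subconfluent (red, left) and confluent arrays (blue, right), with marker shape for the replicate number. The fibroblast and pericyte sums are lower on every subconfluent array than on any confluent one, the macrophage sums are so largely through Cd14, and the endothelial sums overlap.

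Subconfluent cells held far less Gas6 and Gas1 transcript than confluent cells, while Gas5 showed no difference past the test and Gas2, Gas7 and Axl stayed under the signal minimum for testing. Only 4 of the 10 probe sets, those of Gas1 and Gas6 and 2 of Gas5, reached a mean signal of 200 over the 8 arrays, and these were tested among 6007 probe sets. Differences are subconfluent minus confluent of log2(signal + 50), which understates the change of low signals. Of the 4 tested, 2 fell and 0 rose (limma adjusted p under 0.05), whereas 4.06% of all tested probe sets fell and 2.75% rose. In all, 165 probe sets rose and 244 fell, a split that became 237 and 211 when arrays were centred on their medians. With the replicate numbers as a block the background was 11.3% fallen and 9.94% risen (21.2% either way), and the call of each of the 4 did not change. The log2 differences were -3.01 for Gas1, -2.86 for Gas6, and -0.07 and -0.01 for the 2 Gas5 probe sets. Their median of -1.47, against 0.01 over all 6007, thus falls in a gap and describes none of the 4. The fibroblast and pericyte sums and Cd14 were lower in subconfluent cells, as Gas1 and Gas6 were, and smooth muscle sums were higher by pair. The part of such cells in these falls was not tested. In bulk RNA, fewer cells of a type and less RNA per cell cannot be told apart.

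**Figure D2:**
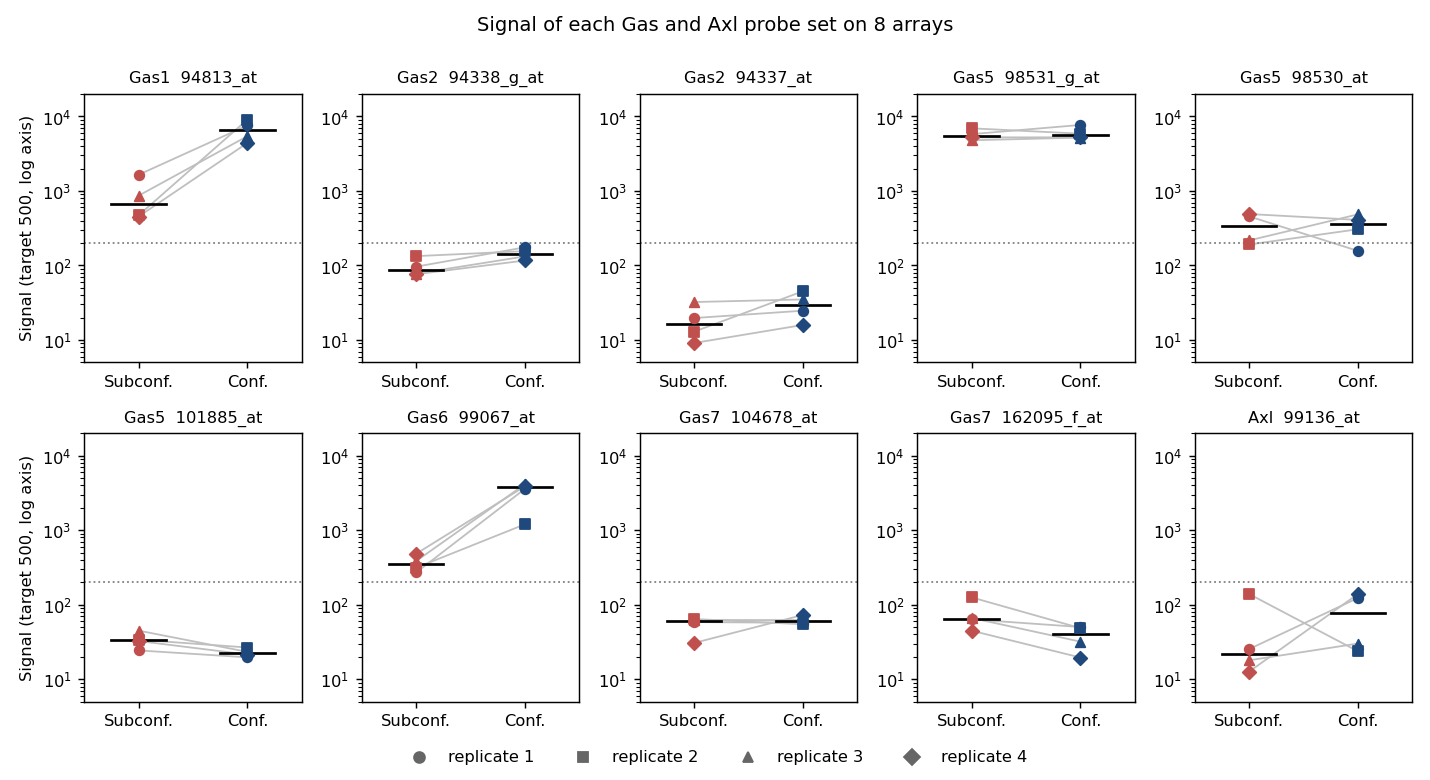
Signal (log axis) of the 10 probe sets in subconfluent (red, left) and confluent cells (blue, right), 1 point per array, with marker shape for the replicate number, grey lines joining equal numbers, black bars at the medians and a dotted line at the signal minimum of 200. Gas1 and Gas6 separate the groups completely, and Gas2, Gas7, Axl and 1 Gas5 probe set stay under 200 on every array.

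Gas6, the ligand, had signals of 271.7, 314.1, 387.1 and 484.6 on subconfluent replicates 1 to 4, against 3605.5, 1204.9, 4159.7 and 3906.8 on confluent replicates 1 to 4. Every subconfluent array was below every confluent one, and confluent replicate 2 stood apart as the lowest of its group. Groups without overlap and with lower subconfluent values were found for 8.54% of all tested probe sets. Mean signals were 364 ± 93.3 in subconfluent and 3219 ± 1362 in confluent cells (SD, n = 4 each), so subconfluent cells had 11.3% of the confluent mean. Gas6 fell by 2.86 ± 0.35 (SE) on the log2 scale, a 7.27-fold decrease with a 95% interval of 4.25-fold to 12.4-fold (limma adjusted p = 0.00203). Over all 6007 probe sets, 7 had a more negative difference. With 1 array left out at a time the log2 difference ran from -3.27 to -2.69 and stayed past the threshold in all 8 fits.

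Axl, the receptor that Gas6 binds most tightly, had signals of 25.5, 139.0, 18.0 and 12.7 on subconfluent replicates 1 to 4, against 123.5, 23.7, 30.2 and 140.0 on confluent replicates 1 to 4. The groups overlapped, and the high values fell on 1 subconfluent and 2 confluent arrays. The noise of the arrays, taken as the noise figure of the labels multiplied by the scale factor, was 7.19 to 21.6 in these units. The low Axl signals of 12.7 to 30.2 were thus within a few multiples of it. In the fit without a signal minimum, which called 1.67% of 12422 probe sets and 0 of the 6 dim member probe sets, the log2 difference was -0.42 with a 95% interval of -1.32 to 0.48 (limma adjusted p = 0.698), and 3 of 4 same-numbered pairs had the lower value in subconfluent cells. A difference in Axl was therefore not detectable at this precision. Gas6 minus Axl within arrays differed by -2.44 on the log2 scale (exact two-sided permutation p = 0.0286, the smallest that 70 splits allow, and 0.0429 after Benjamini-Hochberg adjustment over 3 pairs of members). With a pseudocount of 1 in place of 50 this difference was -2.07 and did not pass (adjusted p = 0.129). With Axl this close to the noise, the difference adds nothing to the fall of Gas6 itself.

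The rest of the Gas6 receptor system gave no call in the fit without a block. Of 8 listed genes 7 were on the array and 3 were tested, and 0 passed limma's test, against 6.81% of all tested probe sets (2 at an unadjusted p under 0.05, which 25.9% of all tested probe sets had, and 2 fell with the replicate numbers as a block). Their median log2 difference was -0.72. Pros1, which encodes protein S, the other ligand of these receptors, had mean signals of 382 ± 247 in subconfluent and 703 ± 236 in confluent cells (SD, n = 4 each), a log2 difference of -0.97 (limma adjusted p = 0.175; 0.0144 with the replicate block). Vkorc1, the vitamin K epoxide reductase that keeps the carboxylation of Gas6 supplied, had a log2 difference of -0.72 (adjusted p = 0.0794; 0.0226 with the block). Adam10, a surface protease that can shed receptors, was at -0.17 (adjusted p = 0.516), and another of its probe sets at 0.08. The receptors Mertk and Tyro3 stayed under the minimum, with mean signals of 67.2 ± 5.94 and 57.3 ± 38.5 in subconfluent cells and 76.4 ± 36.5 and 46.9 ± 2.30 in confluent cells (SD, n = 4 each). The carboxylase gene Ggcx and the protease gene Adam17 were also under it. Thus 0 of the 3 receptor genes for Gas6 reached the minimum, against 56.6% of all genes.

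Downstream of the receptor, 14 of 21 measured genes of Axl signalling were tested and 0 passed, against 6.81% of all tested probe sets. At an unadjusted p under 0.05 were 4 of the 14, and 25.9% of all tested probe sets. The median log2 difference of the 14 was -0.16. The smallest p-values belonged to Ifnar2, a subunit of the interferon receptor with which Axl cooperates in dendritic cells (-0.61, limma adjusted p = 0.0750), the adaptor gene Shc1 (-0.64, 0.101) and the kinase gene Akt1 (0.53, 0.153). These counts take 1 probe set a gene. Another tested probe set of Ifnar2 was at -0.98 and another of Shc1 at -1.26, both larger falls, while Akt1 had no other. With the replicate block 3 of the 14 fell and 1 rose, against 11.3% and 9.94% of all tested probe sets.

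Gas1 had signals of 1650.9, 471.4, 864.9 and 453.7 on subconfluent replicates 1 to 4, against 7589.7, 9074.1, 5439.1 and 4413.9 on confluent replicates 1 to 4. The groups did not overlap, which 8.54% of all tested probe sets showed in this direction. The highest subconfluent array, replicate 1, still lay well under the lowest confluent one. Mean signals were 860.2 ± 560.2 in subconfluent and 6629 ± 2100 in confluent cells (SD, n = 4 each), which left 12.98% of the confluent mean. Gas1 fell by 3.01 ± 0.37 (SE) on the log2 scale, an 8.04-fold decrease with a 95% interval of 4.56-fold to 14.2-fold (limma adjusted p = 0.00203). Leaving out single arrays gave log2 differences between -3.37 and -2.79, all past the threshold.

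Gas1 and Gas6 fell by amounts that could not be told apart over all arrays, and both fell in 4 of 4 pairs, with sizes that differed by pair. Gas1 minus Gas6 was -0.15 (exact permutation p = 0.800). By replicate number, the Gas1 differences were -2.17, -4.13, -2.58 and -3.15 in pairs 1 to 4, and those of Gas6 were -3.51, -1.79, -3.27 and -2.89. Pair 2 held the largest fall of Gas1 and the smallest of Gas6. Within chip lot A (1 array against 1) Gas1 differed by -2.17 and Gas6 by -3.51. Within lot C (2 subconfluent arrays against 1 confluent) they differed by -3.02 and -3.12.

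**Figure D3:**
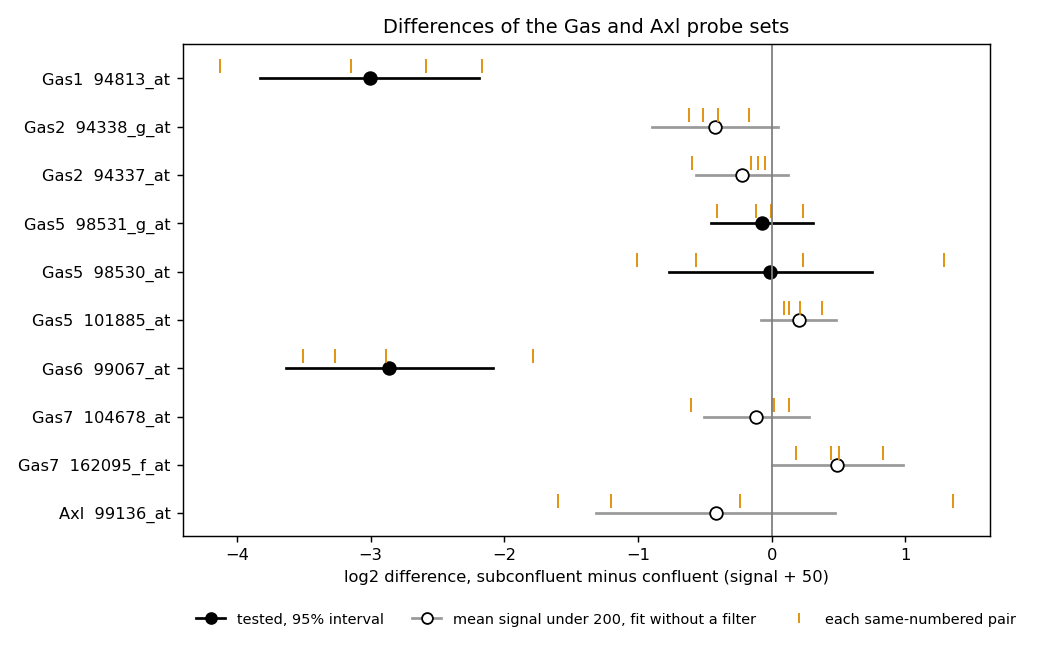
Log2 difference (subconfluent minus confluent, signal + 50) of each probe set. Filled points are tested probe sets, open points those under the signal minimum from the fit without a filter, lines are 95% intervals and ticks the 4 same-numbered pairs. The intervals of Gas1 and Gas6 lie between -3.82 and -2.09, and those of the other probe sets include 0, except that of the brighter-in-subconfluent Gas7 probe set, which begins at 0.00.

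Of the Hedgehog pathway, in which Gas1 is a co-receptor, 4 of 11 measured genes were tested and 0 passed, against 6.81% of all tested probe sets. At an unadjusted p under 0.05 was 1 of the 4, and 25.9% of all tested probe sets. The median log2 difference of the 4 was -0.02. Ptch1, receptor and target of the pathway, was at -0.07 (limma adjusted p = 0.875), and Smo, the signal transducer, at -0.02 (adjusted p = 0.968). Lrp2, an endocytic Shh-binding receptor, had the smallest p (0.67, adjusted p = 0.112; 0.0411 with the replicate block). The co-receptor gene Cdon and the transcription factor genes Gli1, Gli2 and Gli3 were under the minimum. Among the GDNF ligands and receptors, whose receptor subunits are distant relatives of Gas1, 3 of 7 measured genes were tested. Of these 0 passed and 0 had an unadjusted p under 0.05, against 6.81% and 25.9% of all tested probe sets. They were the ligand genes Nrtn and Gdnf at -0.33 and 0.11, and the receptor gene Gfra2 at 0.04.

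Gas5 was read by 3 probe sets. The brightest had signals of 5791.8, 6929.6, 4792.7 and 5237.6 on subconfluent replicates 1 to 4, against 7692.2, 5877.6, 5207.1 and 5245.5 on confluent replicates 1 to 4. The ranges overlapped. The log2 difference was -0.07 with a 95% interval of -0.45 to 0.31 (limma adjusted p = 0.845), which is 0.730 to 1.24 times the confluent level. The second differed by -0.01 with a wider interval of -0.77 to 0.75 (adjusted p = 0.990), with values of 191.3 to 490.1 in subconfluent and 156.6 to 485.8 in confluent cells. Its pairs ran both ways, from -1.004 to 1.29. The third was under the minimum at 24.4 to 45.0 in subconfluent and 19.7 to 26.7 in confluent cells. Its log2 difference was 0.20 in the fit without a filter (adjusted p = 0.486), higher in 4 of 4 pairs. Gas1 minus Gas5 within arrays differed by -2.93 (exact permutation p = 0.0286, adjusted p = 0.0429). With a pseudocount of 1 this did not pass (-3.03, adjusted p = 0.0857). The splits of this test do not keep the same-numbered pairs, so its p-values take the arrays as unpaired.

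Among other snoRNA hosts and factors of nonsense-mediated decay, the pathway that degrades Gas5 RNA during translation, 7 of 10 measured genes were tested. Of these 1 rose and 0 fell, where 6.81% of all tested probe sets were called. At an unadjusted p under 0.05 were 3 of the 7, and 25.9% of all tested probe sets. The 7 probe sets that stand for these genes had positive differences, as 51.2% of all tested probe sets did, while another probe set of Mtor, a growth-regulating kinase gene, was at -0.345. Their median was 0.22, against 0.01 over all tested probe sets. Snhg5, another noncoding snoRNA host, had signals of 897.8, 766.7, 524.1 and 593.0 on subconfluent replicates 1 to 4, against 303.5, 361.3, 310.2 and 335.9 on confluent replicates 1 to 4, without overlap, which 8.34% of all tested probe sets showed in this direction. It rose by 0.96 ± 0.18 (SE) on the log2 scale (1.94-fold, limma adjusted p = 0.0163). Rbm8a, part of the exon junction complex that marks spliced RNA, was at 0.70 (adjusted p = 0.0503), the host gene Snhg1 at 0.40 (adjusted p = 0.144) and Eef1b2, a translation elongation factor gene, at 0.22 (adjusted p = 0.738). With the replicate block 3 of the 7 rose, against 9.94% of all tested probe sets.

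Gas2 was under the minimum in both probe sets. The brighter had signals of 96.5, 133.5, 77.6 and 76.3 on subconfluent replicates 1 to 4, against 175.4, 155.9, 132.4 and 116.7 on confluent replicates 1 to 4. The subconfluent value was the lower in 4 of 4 pairs, while the groups overlapped through subconfluent replicate 2. Without a filter its log2 difference was -0.43 with a 95% interval of -0.90 to 0.05 (limma adjusted p = 0.355). The other lay between 9.1 and 32.3 in subconfluent and between 15.9 and 45.0 in confluent cells (-0.22, adjusted p = 0.543). Gas7 was under it in both probe sets too. The first of its probe sets read 30.7 to 64.4 in subconfluent and 54.8 to 72.9 in confluent cells (-0.12, adjusted p = 0.826). The second read 44.9 to 125.7 in subconfluent and 19.6 to 50.3 in confluent cells (0.49, adjusted p = 0.293), higher in 4 of 4 pairs. The 2 Gas7 probe sets thus pointed in opposite directions and neither passed.

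Relatives and partners of Gas2 and Gas7 included 13 measured genes, of which 7 were tested and 1 rose and 0 fell, with a median of -0.07. Over all tested probe sets 6.81% were called. At an unadjusted p under 0.05 were 2 of the 7, and 25.9% of all tested probe sets. The riser was Capn2, the catalytic subunit of the calcium-dependent protease m-calpain, at 1262 ± 181 in subconfluent and 651 ± 95.02 in confluent cells (SD, n = 4 each; log2 difference 0.90, limma adjusted p = 0.0158). Its adjusted p was 0.0509 without subconfluent replicate 4 and 0.0522 with chip lot as a fixed block, where the difference was 0.66. Capns1, the regulatory calpain subunit, was at -0.47 (adjusted p = 0.0935), Capn1, the catalytic subunit of mu-calpain, at 0.12 (adjusted p = 0.699), and Macf1, a large linker of actin and microtubules that carries a GAS2-type domain, at -0.14 (adjusted p = 0.699).

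Other genes of growth arrest did not move as a block. Of 25 measured genes 20 were tested, 2 fell and 1 rose, with a median log2 difference of -0.13. Over all tested probe sets 6.81% were called. At an unadjusted p under 0.05 were 6 of the 20, and 25.9% of all tested probe sets. With the replicate block 3 of the 20 fell and 3 rose, where 21.2% of all tested probe sets were called either way. Ccng2, a cyclin of cells leaving the cycle, had signals of 126.9, 102.5, 115.2 and 147.3 on subconfluent replicates 1 to 4, against 764.1, 348.2, 424.1 and 358.6 on confluent replicates 1 to 4, without overlap. Groups without overlap in this direction were found for 8.54% of all tested probe sets. Ccng2 fell by 1.54 ± 0.24 (SE; limma adjusted p = 0.00745), and by 2.20 within lot A. It reached the signal minimum through the confluent arrays alone, so its place in the count of genes that fell is no support for the list. In the fit without a minimum its adjusted p was 0.0183. The stress-response genes Gadd45a and Gadd45g went opposite ways. Gadd45a fell by 1.501 (adjusted p = 0.0332), with 222.8 ± 48.2 in subconfluent and 836 ± 617 in confluent cells (SD, n = 4 each). It differed by -2.72 within lot A and by -0.77 within lot C. It lost its call without confluent replicate 4 or any 1 subconfluent array (adjusted p up to 0.0780), and in the fit without a minimum (0.0606). Gadd45g rose by 1.03 (adjusted p = 0.0308), with 818 ± 258 in subconfluent and 363 ± 65.0 in confluent cells (SD, n = 4 each). It kept its call without confluent replicate 2 or subconfluent replicate 3 and lost it without any other array (adjusted p up to 0.0782), with chip lot as a fixed block (0.0614) and in the fit without a minimum (0.0550).

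Pmp22, the myelin protein gene first cloned as Gas3, had signals of 682.9, 207.2, 584.9 and 875.1 on subconfluent replicates 1 to 4, against 1740.8, 907.3, 1126.0 and 1336.7 on confluent replicates 1 to 4. All subconfluent values were under all confluent values, as for 8.54% of tested probe sets, and 16.9% had no overlap in either direction. The log2 difference was -1.16 (limma adjusted p = 0.0696; 0.00670 with the replicate block). Gas8, a ciliary protein gene, was at 0.22 (adjusted p = 0.389) and in another probe set at -0.12, named outside the rule after its value was seen. The zinc finger gene Klf4 and Gadd45b had log2 differences of 0.66 and 0.75, with adjusted p-values of 0.0566 and 0.0840. Under the block both passed, at 0.0231 and 0.0201, while another Gadd45b probe set was at -0.14. Over all 7 lists 57 genes were tested, 3 rose and 2 fell, together 8.77% against 6.81% of all tested probe sets.

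**Figure D4:**
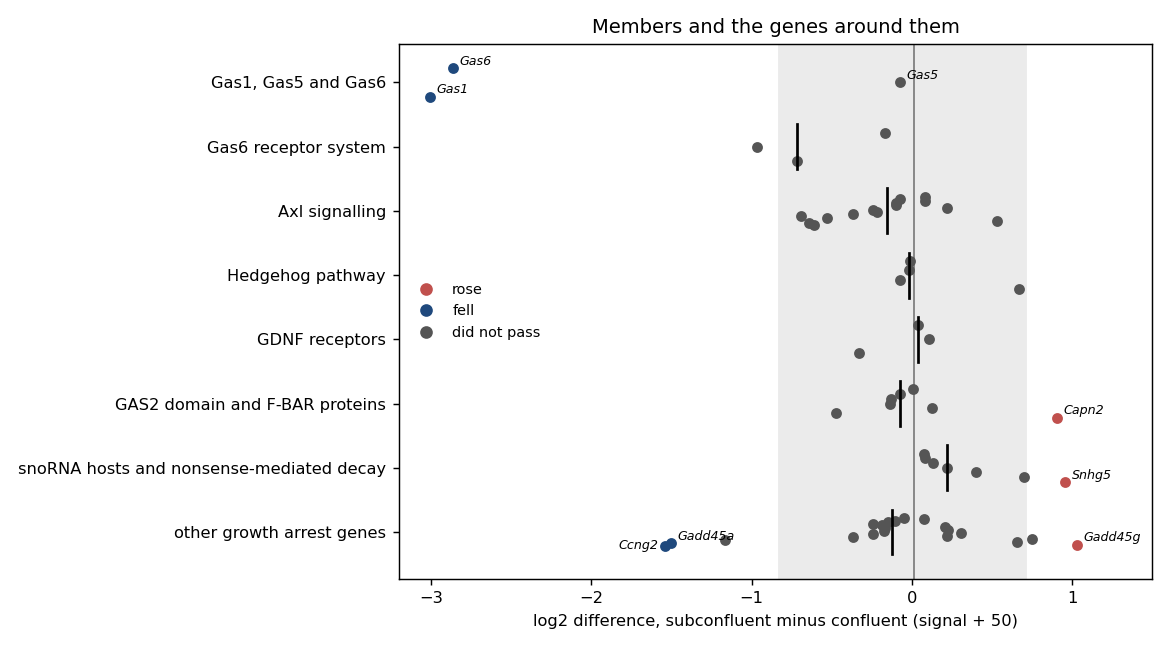
Log2 difference of each tested gene (points, red where it rose, blue where it fell, grey where it did not pass), by list, with black bars at list medians, the grey band spanning the middle 90% of all 6007 probe sets and the grey line at their median. Gas1 and Gas6 lie at -3.01 and -2.86, and the next lowest, Ccng2, at -1.54.

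The genes whose profile over the 8 arrays came nearest to Gas6 were Hp (haptoglobin), Mmp3 (a matrix protease), Serpina3n (a protease inhibitor) and Gstt1 (a glutathione transferase). The measure is the root mean square distance between log2 deviations from the confluent mean, which was 0.414, 0.441, 0.487 and 0.504 for these 4, against a median of 2.11 over 4667 genes. Like Gas6, all 4 had their lowest confluent value on confluent replicate 2. Hp there read 2306.7, against 5552.8, 5826.7 and 8029.7 on confluent replicates 1, 3 and 4. Nearest to Gas1 were Gstt1, Mgst1 (a microsomal glutathione transferase), Mgp (an inhibitor of calcification that, like Gas6, is carboxylated with vitamin K) and Fndc1, at 0.623, 0.708, 0.717 and 0.749. Between Gas1 and Gas6 themselves the distance was 0.996, and Gstt1 was the 1 gene on both lists. The measure takes in the difference between the groups, so it favours genes that fell about as far, and it is a description of these arrays. It takes in each array too, so the low values shared with Gas6 on confluent replicate 2 are part of how the genes were chosen.

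**Figure D5:**
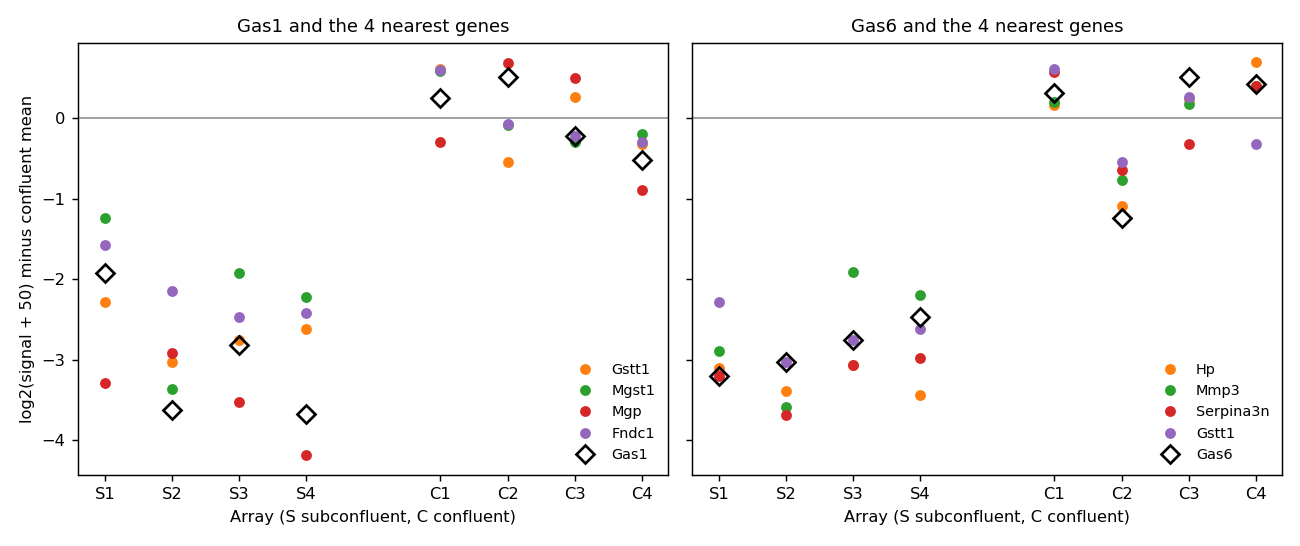
Deviation of log2(signal + 50) from the confluent mean on each array, for Gas1 and Gas6 (open diamonds) and the 4 genes nearest to each (points), with subconfluent arrays S1 to S4 left of confluent arrays C1 to C4. Gas6 and its 4 nearest genes are all below 0 on C2, while Gas1 is above 0 there. The nearest genes were chosen over these same arrays, C2 among them.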

How the data were processed

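Per the labels, the authors computed signal, a linear measure, with the Statistical algorithm of Affymetrix and a target of 500. Its version is not given in the sources used here. Scale factors, noise and chip lots came from the labels. No further normalization was applied, since the mean of each array, trimmed by 2% at both ends, already rounded to that target. Median signals were 168.9 to 187.5. With 4 arrays a group, array number sets the precision.

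Controls (66 of 12488 probe sets) were left out, and 10833 of the rest had 1 gene symbol, 396 several and 1193 none. The 6007 probe sets whose signal averaged 200 or more were tested with limma 3.58.1 in R 4.3.3 (lmFit, eBayes with a variance trend, no block) on log2(signal + 50), with Benjamini-Hochberg adjustment and a two-sided threshold of 0.05. For a gene with several probe sets the 1 with the highest mean stood for it. Differences between members were tested by exact permutation over all 70 splits of the 8 arrays, which do not keep the same-numbered pairs. Python 3.11.15, pandas 2.3.3 and matplotlib 3.10.9 served for everything else, and the fit was tested on simulated data.

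The members, lists, motifs and tests were chosen with earlier results of these data known. Genes were named by a rule: all members, list genes that passed and up to 3 more per list with the smallest p, and the 4 nearest genes of each member that passed. Marker genes and the untested list genes (receptors, proteases and transcription factors under the minimum) were named beside these, after their values were seen. The 7 lists were the Gas6 receptor system, Axl signalling, the Hedgehog pathway, GDNF receptors, GAS2 domain and F-BAR proteins, snoRNA hosts and nonsense-mediated decay, and other growth arrest genes.

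Experiments are numbered 1 to 4 in both groups. Deviations from the group means correlated at 0.486, 0.357, 0.516 and 0.348 between arrays of the same number and at most 0.0681 otherwise, so the numbers pair the samples. The main fit leaves this pairing out, because the labels state no paired test. It called 6.81% of tested probe sets, where the fit with the replicate block called 21.2%. Of the 4 chip lots, A held replicate 1 of both groups, C subconfluent replicates 3 and 4 and confluent replicate 3, and the others 1 group each. Alternatives were other pseudocounts, filters and normalizations, the replicate block, chip lot as a fixed or random block, the scale factor as a covariate, no variance trend, single lots, an exact permutation test and each array left out.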

Additional observations from a re-analysis of the deposited data

Results flagged for a closer look

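In 20 combinations of a member probe set and a group, the array farthest from the others was tested by Dixon's ratio on the log2 scale, which chance passes in about 1 of 20 groups of 4, and 3 combinations passed. Gas6 read 1204.9 on confluent replicate 2, far below the other confluent arrays. The first Gas7 probe set read 30.7 on subconfluent replicate 4, where the other subconfluent arrays held 58.6 to 64.4. Axl read 139.0 on subconfluent replicate 2, where the other subconfluent arrays held 12.7 to 25.5, and that array had the highest scale factor of the 8, at 13.3. The part of the scale factor was not tested. Without confluent replicate 2 the log2 difference of Gas6 was -3.27, against -2.86 with it.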

How the results depend on the processing

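Gas6 and Gas1 kept direction and call in all 20 alternatives that tested more than 1 array a group. Within lots both kept their direction. In lot C, where 1 confluent array is assumed to vary like the others, Gas1 was at -3.02 (adjusted p = 0.124) and Gas6 at -3.12 (0.0403), and neither p is read as support. Both gave an exact permutation p of 0.0286, the smallest that 70 splits allow. With arrays left out in turn Gas1 ran from -3.37 to -2.79, Gas6 from -3.27 to -2.69, the brightest Gas5 probe set from -0.17 to 0.052 and the second Gas5 probe set from -0.29 to 0.19. The last also turned positive with quantile normalization (0.024), median centring (0.034), chip lot as a fixed (0.27) or random block (0.052), the scale factor as a covariate (0.0066) and within lot A (1.29), never past the threshold. With a pseudocount of 1, Gas6 minus Axl (-2.07) and Gas1 minus Gas5 (-3.03) no longer passed. Gas1 minus Gas6 turned positive in lot A (1.34) and lot C (0.11). Leaving out single arrays, the 3 differences ran from -2.74 to -2.02, from -3.28 to -2.63 and, for Gas1 minus Gas6, from -0.62 to 0.43. These 3 differences were not run with the blocks, the covariate, the filters or the variance trend.

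Over all probe sets 165 were higher and 244 lower. The counts were 72 and 136 with no filter, 597 and 679 with the replicate block, 368 higher with chip lot as a fixed block, 453 and 485 with it as a random block, and 2 and 3 within lot C. Without single arrays they ran from 18 to 342 higher and 80 to 345 lower. Of the list genes, 3 rose and 2 fell. The counts were 9 and 8 with the replicate block, 5 and 6 with chip lot as a random block, 0 and 0 within lot C, 5 risen with median centring, 5 risen and 1 fallen with a filter of 500, and 1 fallen with no filter. They ran from 1 to 4 and from 1 to 2 without single arrays. The replicate block changed the call of 0 of the 4 tested member probe sets. Except where fewer arrays or other probe sets entered a fit, the cause was not tested. The dimmest members, with signals down to 9.1, reach into the noise of the arrays (7.19 to 21.6), and the brighter Gas2 probe set (76.3 to 175.4) lies above it.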
